A study of Mus musculus with 12 samples.

Results

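The genes described here are ATF4 and 9 genes of the integrated stress response in TSEC, a mouse cell line of immortalized endothelial cells from the liver sinusoids. The members were Atf4, Atf3, Ddit3, Trib3, Asns, Chac1, Sesn2, Psat1, Phgdh and Ddit4, and each was taken from the transcript cluster annotated with that symbol alone. All 10 of 10 were found among 13556 genes with a single symbol on the array. Each had 1 transcript cluster, and each was above a log2 value of 4.5, the level used to call a gene present, in all 12 arrays.

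Total RNA of TSEC was measured on Mouse Gene 2.0 ST arrays in 4 groups of 3 arrays. FFA+INT-767 cells were given free fatty acids and INT-767, FFA cells were given the fatty acids alone, INT-767 cells were given that agonist alone, which acts on FXR and TGR5, both receptors for bile acids, and Media cells had neither. Per the labels the fatty acids were 0.66 mM oleic acid and 0.33 mM palmitic acid, INT-767 was at 30 μM and exposure lasted 8 hours, whereas the methods of the paper give another oleic acid dose and a longer time, and which applies is not known. Each group held the replicate numbers 1, 2 and 3, which the labels call biological replicates and the paper triplicate wells. P-values here therefore reflect only how these samples spread, and part of that spread may be technical. Values are log2 expression values throughout, and differences are log2 differences.

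Of the labelled cell type's defining markers, 5 of 10 endothelial genes and 1 of 6 sinusoidal endothelial genes had a transcript with that symbol alone. Cd34 averaged 8.20 and Mcam 5.22, whereas Kdr, Eng and Nos3 averaged 4.31, 4.25 and 4.43, below the level used to call a gene present. The sinusoidal marker Mrc1 averaged 4.31. Pecam1, Cdh5, Tek, Tie1, Vwf, Stab1, Stab2, Lyve1, Fcgr2b and Clec4g were not analysed here. Stellate and fibroblast markers were measured for 6 of 6 genes and differed in level. Acta2 averaged 9.45, Col1a1 9.06 and Pdgfrb 6.66, whereas Des averaged 5.51, Col3a1 5.29 and Col1a2 4.85. Of the 3 measured hepatocyte markers Apoa1 averaged 5.95, Alb 4.29 and Ttr 4.25.

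The integrated stress response starts when one of several kinases senses amino acid shortage, misfolded proteins in the endoplasmic reticulum (ER), double-stranded RNA or heme deficiency and phosphorylates the initiation factor eIF2alpha. Bulk protein synthesis then slows, while the mRNA of the transcription factor ATF4 is translated more, so that much of ATF4's control is at translation and is not seen in its mRNA. ATF4, with C/EBP-family partners, induces genes of amino acid uptake, amino acid synthesis and tRNA charging, together with regulators that restrain the response or lead to cell death. Palmitic acid is known to provoke ER stress in many cell types, oleic acid much less so.

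ATF4 and its partners bind a composite element whose core can be written TGATGNAA. This core was searched on both strands between 250 bases before and 50 bases after the start of each gene in the RefSeq promoters of GRCm38.p6, where all 10 members matched by symbol. It was present in 4 of 10 members and in 1219 of 27025 genes (4.51%). The stretches around the match are shown in 5′ to 3′ direction on the gene's strand. Of these 4 genes, Asns and Chac1 were called by replicate number below, and Atf3 and Trib3 were not. Ddit4, Phgdh, Sesn2 and Psat1 were called as well and lack the core in this window. Capitals mark the match, which reads as the reverse complement in Atf3, Trib3 and Chac1.
Atf3, chr1:191183410-191183469, minus strand: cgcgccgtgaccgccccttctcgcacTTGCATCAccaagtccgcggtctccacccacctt
Trib3, chr2:152344028-152344057, minus strand: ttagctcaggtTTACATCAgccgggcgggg
Asns, chr6:7693210-7693258, minus strand: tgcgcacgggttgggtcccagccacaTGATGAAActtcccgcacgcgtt
Chac1, chr2:119351023-119351082, plus strand: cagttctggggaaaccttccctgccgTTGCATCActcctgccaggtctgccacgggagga
Counted from the start, the match began at -110 in Atf3, -23 in Asns, -193 in Chac1 and 15 in Trib3. The same 8 letters stood in Atf3 and Chac1. The windows of Atf4, Ddit3, Sesn2, Psat1, Phgdh and Ddit4 did not hold these letters. The cAMP response element TGACGTCA was in 0 of 10 members and 2.03% of genes, and the ER stress element in 0 of 10 members and 0.137% of genes. A match is a run of letters and was not tested for binding.

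Atf4 encodes the central transcription factor of the response. Its transcript (cluster 17313100) was at 8.54, 9.10 and 8.80 in FFA+INT-767, at 8.72, 9.05 and 9.09 in FFA, at 8.79, 9.21 and 9.15 in INT-767 and at 8.98, 9.10 and 8.94 in Media, given for replicates 1, 2 and 3 in this order here and for each gene after it. Replicate 1 was the lowest of its group in FFA+INT-767, FFA and INT-767, and the 4 groups overlapped.

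The factors downstream of ATF4 were Atf3, a transcription factor that mostly represses its targets, and Ddit3, which encodes CHOP, a factor tied to cell death in prolonged stress. Atf3 (cluster 17231033) was at 6.44, 6.80 and 6.45 in FFA+INT-767, at 6.04, 6.30 and 6.76 in FFA, at 6.38, 6.91 and 7.41 in INT-767 and at 5.89, 6.32 and 8.35 in Media. Media thus held both the lowest and the highest of the 12 values. Ddit3 (cluster 17237978) was at 7.39, 7.61 and 6.97 in FFA+INT-767, at 7.39, 7.39 and 6.58 in FFA, at 7.08, 7.63 and 7.66 in INT-767 and at 7.24, 7.25 and 7.01 in Media. Its lowest value was FFA replicate 3, and all groups overlapped.

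Trib3, Chac1, Sesn2 and Ddit4 encode effectors and brakes of the response. TRIB3 is a pseudokinase that binds ATF4 and restrains it and AKT signaling. Trib3 (cluster 17392925) was at 5.27, 5.99 and 5.06 in FFA+INT-767, at 5.37, 5.67 and 5.19 in FFA, at 5.14, 5.93 and 6.34 in INT-767 and at 5.62, 5.41 and 5.59 in Media. INT-767 held its highest value and spanned more than the Media arrays. Chac1, which encodes an enzyme that degrades glutathione, was at 6.92, 8.07 and 6.80 in FFA+INT-767 (cluster 17374807), at 6.86, 7.44 and 6.79 in FFA, at 6.89, 8.30 and 7.36 in INT-767 and at 7.12, 7.57 and 6.76 in Media. In each group replicate 2 was the highest. Sesn2, a sensor of leucine that limits the growth kinase mTORC1, was at 6.36, 7.37 and 6.35 in FFA+INT-767 (cluster 17430861), at 6.14, 6.47 and 6.54 in FFA, at 5.93, 6.91 and 6.55 in INT-767 and at 6.002, 6.55 and 6.09 in Media. Ddit4, which encodes REDD1, another inhibitor of mTORC1 that also responds to hypoxia and glucocorticoids, was at 9.48, 8.99 and 9.45 in FFA+INT-767 (cluster 17241032), at 9.82, 9.02 and 9.19 in FFA, at 9.77, 8.92 and 9.34 in INT-767 and at 9.98, 9.07 and 9.50 in Media. Replicate 2 was the lowest of each group for Ddit4.

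The remaining members encode enzymes that make amino acids. Asns, asparagine synthetase, was at 10.11, 10.53 and 10.08 in FFA+INT-767 (cluster 17464718), at 9.56, 10.40 and 10.16 in FFA, at 9.89, 10.70 and 10.23 in INT-767 and at 9.74, 10.40 and 10.13 in Media. Replicate 2 was again the highest of each group. Phgdh, the first enzyme of serine synthesis, was at 7.51, 8.56 and 8.19 in FFA+INT-767 (cluster 17408273), at 8.04, 8.69 and 8.20 in FFA, at 7.83, 8.62 and 8.04 in INT-767 and at 8.12, 8.61 and 8.02 in Media. Psat1, the second enzyme of that pathway, was at 10.17, 10.46 and 10.37 in FFA+INT-767 (cluster 17363204), at 10.20, 10.36 and 10.48 in FFA, at 10.27, 10.58 and 10.50 in INT-767 and at 10.16, 10.34 and 10.35 in Media. Replicate 1 was the lowest of each group for Psat1, and in every group its values lay closer together than those of Asns or Phgdh.

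**Figure D1:**
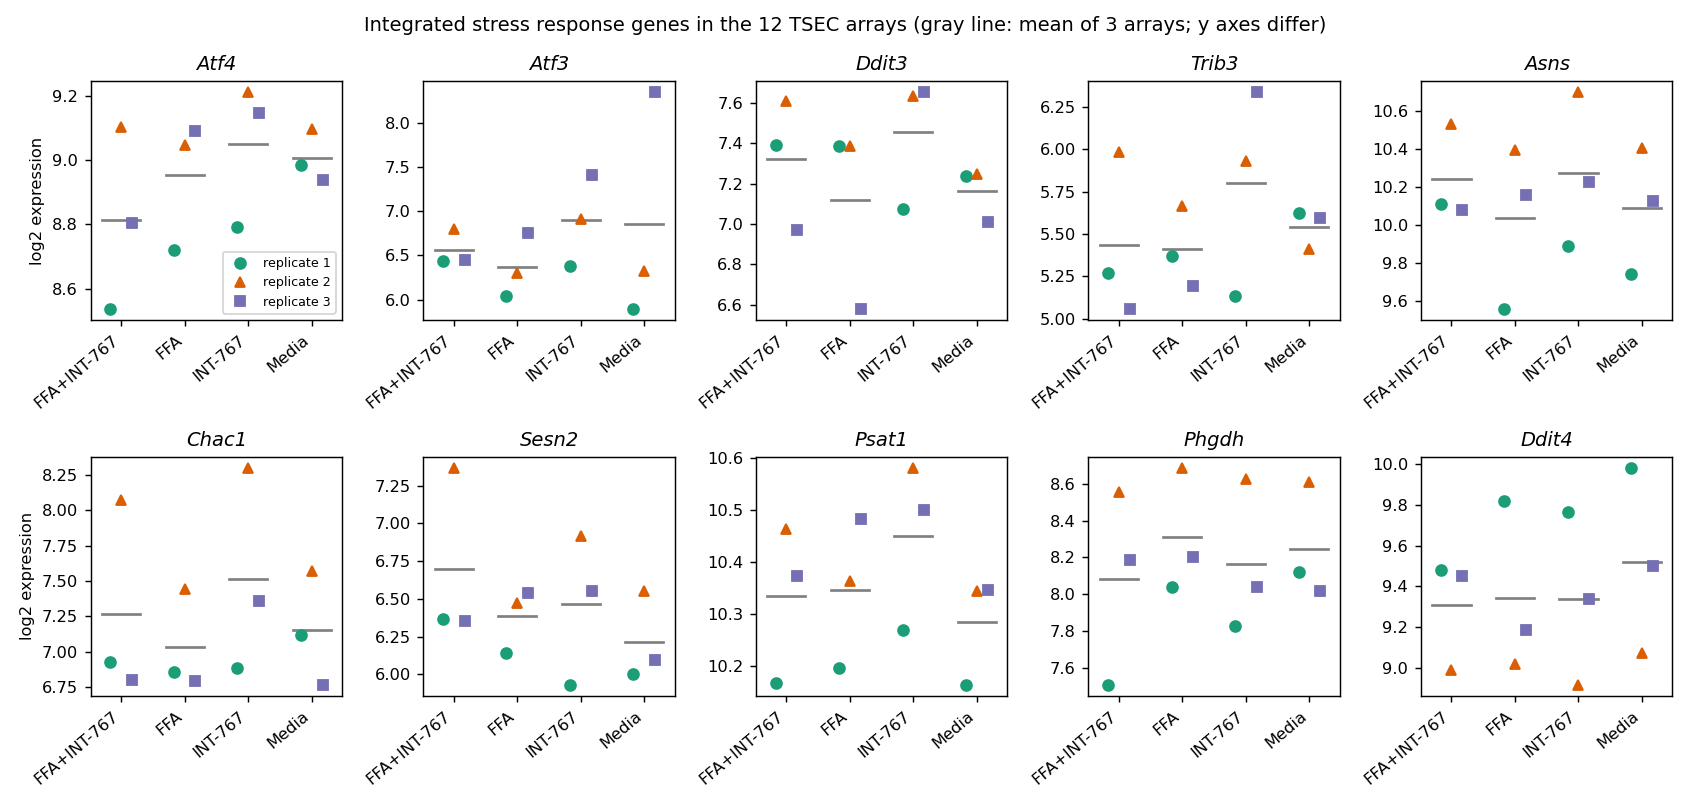
Log2 expression of the 10 members in each of the 12 arrays by treatment, with 1 panel a gene, 1 marker a replicate number and a gray line at the mean of 3 arrays. Within each group Chac1 and Asns were highest and Ddit4 lowest in replicate 2, while the 4 groups overlapped for all 10 genes.

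None of the members separated the treatments. Over the 6 pairs of groups and 10 members, 0 of 60 comparisons had groups that did not overlap, against 7.81% of such comparisons over all transcripts. This count takes no account of the replicate numbers, by which the arrays within a group also spread. It therefore does not decide whether same-numbered arrays differed by treatment. Likewise, 0 of 10 members had no overlap between the 6 arrays with FFA and the 6 without (0.0805% of transcripts), and 0 of 10 between the 6 arrays with INT-767 and the 6 without (0.276%).

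To ask whether the fatty acids altered the response, the arrays with and without FFA were compared over all 12 arrays with INT-767 as a factor, by limma with Benjamini-Hochberg adjustment over 26076 transcripts. At an adjusted p under 0.05, 0 of 10 members were called, as were 0 of all transcripts (0%). At an unadjusted p under 0.05 there were 0 of 10 members and 627 transcripts (2.4%). The estimates were lower with FFA for 9 members and higher for 1, with a median of -0.10 against 0.00 for all transcripts.

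Atf4 differed by -0.14 ± 0.12 with FFA (SE, 95% interval -0.40 to 0.11, n = 6 arrays a side), so that a loss larger than 0.40 lay outside the interval. Ddit3 differed by -0.09 ± 0.17 (interval -0.46 to 0.28), and Trib3 by -0.25 ± 0.21 (interval -0.70 to 0.20). The interval was widest for Atf3, at -0.41 ± 0.35 (interval -1.18 to 0.36), and its estimate was -0.07 without Media replicate 3, the array with its highest value. Chac1 differed by -0.19 ± 0.28 (interval -0.79 to 0.42) and Ddit4 by -0.11 ± 0.20 (interval -0.54 to 0.33). Sesn2 alone had a positive estimate, 0.20 ± 0.21 (interval -0.26 to 0.65). It was 0.05 without FFA+INT-767 replicate 2, and Chac1 was at -0.004 without INT-767 replicate 2. For the enzymes the estimates lay nearer to 0, at -0.04 ± 0.18 for Asns (interval -0.43 to 0.35), -0.03 ± 0.09 for Psat1 (interval -0.22 to 0.17) and -0.01 ± 0.20 for Phgdh (interval -0.45 to 0.43). No adjusted p of a member was below 0.999.

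The comparison of INT-767 with no INT-767, with FFA as a factor, asked the same of the bile acid receptor agonist. Again 0 of 10 members and 0 of 26076 transcripts (0%) were called, and 0 of 10 members had an unadjusted p under 0.05, against 1634 transcripts (6.27%). Here 7 estimates were positive and 3 negative, with a median of 0.13 for the members and -0.01 for all transcripts, and the smallest adjusted p of a member was 0.847. In bulk RNA, a shift in the share of cells that express a gene and a shift in RNA per cell cannot be told apart.

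The positive estimates with INT-767 were largest for Chac1, at 0.30 ± 0.28 (SE, 95% interval -0.30 to 0.90), Sesn2, at 0.28 ± 0.21 (interval -0.17 to 0.73), and Ddit3, at 0.25 ± 0.17 (interval -0.12 to 0.61). Asns differed by 0.19 ± 0.18 (interval -0.20 to 0.58) and Trib3 by 0.14 ± 0.21 (interval -0.30 to 0.59). Single arrays moved these values both ways, and none changed sign. The lowest were 0.12 for Chac1 without INT-767 replicate 2, 0.13 for Sesn2 without FFA+INT-767 replicate 2 and 0.13 for Ddit3 without FFA replicate 3. Asns fell to 0.08 without FFA replicate 1 and Trib3 to 0.01 without INT-767 replicate 3. Without INT-767 replicate 1 the values rose to 0.43 for Chac1, 0.40 for Sesn2, 0.28 for Asns and 0.28 for Trib3. Ddit3 rose to 0.33 without FFA+INT-767 replicate 3. Atf4 itself was at -0.05 ± 0.12 (interval -0.30 to 0.20). The estimate was 0.12 ± 0.35 for Atf3 (interval -0.65 to 0.89) and 0.08 ± 0.09 for Psat1 (interval -0.11 to 0.27). Phgdh differed by -0.15 ± 0.20 (interval -0.59 to 0.29) and Ddit4 by -0.11 ± 0.20 (interval -0.54 to 0.33).

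**Figure D2:**
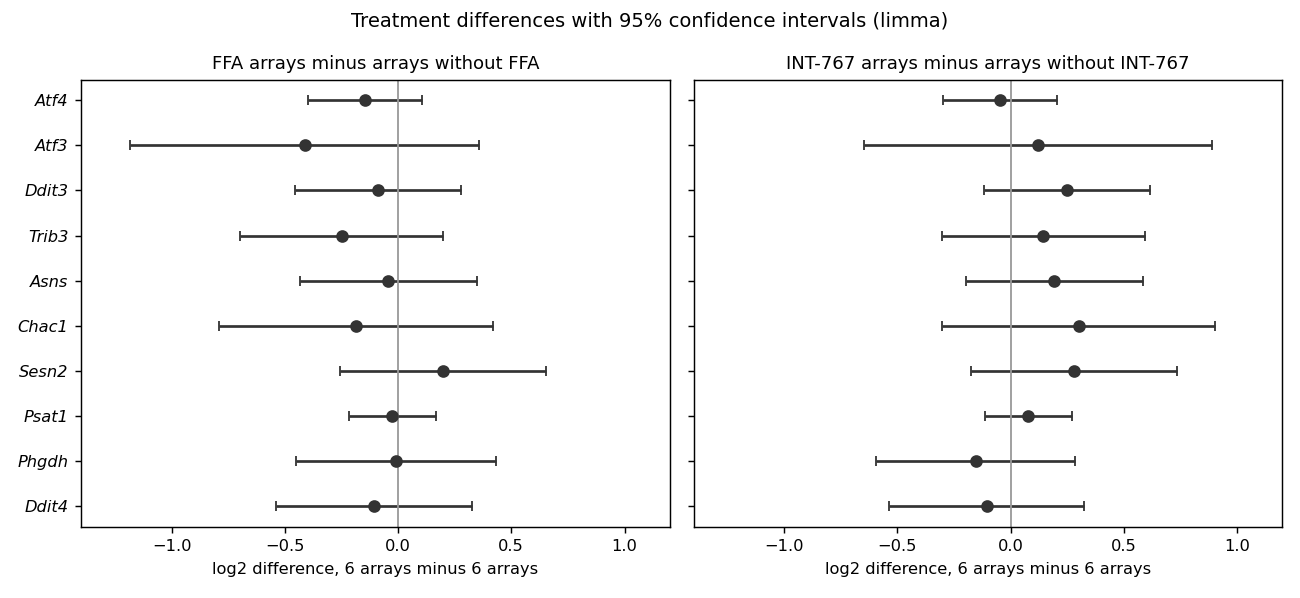
Log2 difference with FFA and with INT-767 over 12 arrays for each member (x axis), with the limma estimate as a point and its 95% interval as a line, from 6 arrays against 6 without a block. The intervals included 0 for all 10 members under both treatments.

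Same-numbered arrays varied together, so each difference was also read within a replicate number. With the replicate number as a block, the 12-array fit for INT-767 still called 0 of 10 members and 0 of all transcripts (0%), but 3 members had an unadjusted p under 0.05, against 3512 transcripts (13.5%). These were Asns at 0.19 ± 0.08 (adjusted p = 0.324), Chac1 at 0.30 ± 0.13 (adjusted p = 0.344) and Sesn2 at 0.28 ± 0.12 (adjusted p = 0.366). With the block, 0 of 10 members had an unadjusted p under 0.05 for FFA, against 6.19% of transcripts, and 0 of 10 for the interaction of both treatments, against 4.91%.

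Within replicate numbers, Ddit3, Asns and Chac1 were higher with INT-767 in 5 of 6 pairs of arrays, and Ddit4 was lower in 5 of 6. The other members were higher in 2 to 4 of 6. Chac1 differed by 0.07, 0.63 and 0.01 between FFA+INT-767 and FFA in replicates 1, 2 and 3, and by -0.23, 0.73 and 0.59 between INT-767 and Media. The differences of Chac1 were thus largest in replicate 2, with and without FFA. Across the members, INT-767 arrays were higher than Media arrays for 3, 9 and 8 of 10 genes in replicates 1, 2 and 3, with medians of -0.18, 0.33 and 0.18. In the presence of FFA the counts were 5, 8 and 3 of 10, with medians of -0.01, 0.18 and -0.09. The difference of Atf4 with FFA was negative in 5 of 6 pairs, and those of the other members in 2 to 4 of 6. These counts carry no test, and the share of all transcripts with such counts was not worked out. They therefore do not show a trait of the members. For Trib3 the difference between FFA+INT-767 and INT-767 was -1.28 in replicate 3, with 5.06 in FFA+INT-767 and 6.34 in INT-767.

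The comparisons on 6 arrays gave the same count of calls. In each of the 5 comparisons of single groups, 0 of 10 members and 0% of transcripts were called at an adjusted p under 0.05. At an unadjusted p under 0.05 each had 0 of 10 members, against 2.68% of transcripts for FFA over Media, 2.14% for FFA+INT-767 over INT-767, 2.92% for INT-767 over Media, 4.73% for FFA+INT-767 over FFA and 5.38% for FFA+INT-767 over Media. With the block, the first 4 of these again had 0 of 10 members, against 5.89%, 4.72%, 8.07% and 12.1% of transcripts. Some of these comparisons share arrays, Media in 3 of them. The extreme estimates of FFA against Media were Atf3 at -0.49 ± 0.61, which became 0.26 without Media replicate 3, and Sesn2 at 0.17 ± 0.19. Those of FFA+INT-767 against INT-767 were Trib3 at -0.36 ± 0.36 and Sesn2 at 0.23 ± 0.35, the second of which was -0.11 without FFA+INT-767 replicate 2. For INT-767 against Media, Ddit4 was at -0.18 ± 0.29 and Chac1 at 0.36 ± 0.38, and Chac1 was at -0.03 without INT-767 replicate 2. For FFA+INT-767 against FFA, Phgdh was at -0.23 ± 0.29, and at 0.06 without FFA+INT-767 replicate 1, and Sesn2 was at 0.31 ± 0.29, and at -0.03 without FFA+INT-767 replicate 2.

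Sesn2 in FFA+INT-767 against Media had the highest estimate of the 5 comparisons, 0.48 ± 0.30 (adjusted p = 0.957). The lowest estimate within FFA+INT-767 against Media was Atf3 at -0.29 ± 0.59, which became 0.45 without Media replicate 3. With the replicate number as a block the adjusted p of Sesn2 was 0.496 by limma, and Sesn2 was the 1 of 10 members with an unadjusted p under 0.05, against 8.83% of transcripts. Without FFA+INT-767 replicate 2 the estimate of Sesn2 was 0.14. The interaction of FFA and INT-767, which tests whether INT-767 acted differently in the presence of FFA, called 0 of 10 members and 0% of transcripts, and had 0 of 10 members at an unadjusted p under 0.05, against 2.69% of transcripts. Its estimates for the members lay between -0.23 ± 0.42 for Trib3 and 0.15 ± 0.74 for Atf3.

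By replicate number, 6 of the 10 members differed and 4 did not pass. Chac1, Asns and Phgdh were higher in replicate 2 than in replicates 1 and 3 under all 4 treatments, Sesn2, Atf4, Psat1 and Atf3 were higher in replicate 2 than in replicate 1 under all 4, and Ddit4 was lower in replicate 2 under all 4. By limma with treatment as a factor, 6 of 10 members were called for replicate number at an adjusted p under 0.05, against 5323 of 26076 transcripts (20.4%). These were Ddit4 (adjusted p = 0.00423), Asns (0.00673), Phgdh (0.00750), Chac1 (0.00806), Sesn2 (0.0327) and Psat1 (0.0419). Atf4 (0.0536), Atf3 (0.123), Ddit3 (0.277) and Trib3 (0.490) did not pass. The sources used here do not give what the number marks, and culture, RNA extraction and array run cannot be told apart under it.

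Between replicates 2 and 1, 6 members were called higher, against 7.44% of transcripts, and 1 lower, against 5.68%. Chac1 was higher by 0.90 ± 0.16 (SE, n = 4 arrays each, adjusted p = 0.00994), with differences between 0.45 and 1.41 across the treatments. Phgdh was higher by 0.75 ± 0.11 (adjusted p = 0.00540) and Asns by 0.68 ± 0.10 (adjusted p = 0.00457). Ddit4 ran the other way, at -0.76 ± 0.10 (adjusted p = 0.00308), with differences between -0.91 and -0.49. These 4 genes kept the call whichever array was left out. Sesn2 was higher by 0.72 ± 0.16 (adjusted p = 0.0224), Atf4 by 0.36 ± 0.09 (adjusted p = 0.0369) and Psat1 by 0.24 ± 0.06 (adjusted p = 0.0410), and these calls were less firm. Leaving out single arrays lost the call of Sesn2 in 5 of 12 cases, of Atf4 in 9 of 12 and of Psat1 in 12 of 12, with adjusted p up to 0.0748, 0.114 and 0.120. The call of Psat1 was also lost once the arrays were shifted to equal medians. Trib3 at 0.40 ± 0.25, Atf3 at 0.39 ± 0.35 and Ddit3 at 0.19 ± 0.19 did not pass. The median of the 10 members was 0.40, against 0.03 for all transcripts.

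Between replicates 2 and 3, 2 members were called higher, against 4.83% of transcripts, and 0 lower, against 4.41%. Chac1 was higher by 0.92 ± 0.16 (adjusted p = 0.0110) and Phgdh by 0.51 ± 0.11 (adjusted p = 0.0278). Asns differed by 0.36 ± 0.10 (adjusted p = 0.0568) and Ddit4 by -0.37 ± 0.10 (adjusted p = 0.0514), both just outside the threshold. Phgdh lost its call in 7 of 12 cases when single arrays were left out. Between replicates 3 and 1 a single member was called higher, against 6.86% of transcripts, and another lower, against 6.16%. Psat1 was higher by 0.23 ± 0.06 (adjusted p = 0.0493), a call lost in 12 of 12 cases, and Ddit4 was lower at -0.39 ± 0.10 (adjusted p = 0.0340), a call lost in 7 of 12. Atf3 had the largest estimate between replicates 3 and 1 at 1.05 ± 0.35 (adjusted p = 0.0815), and it was 0.59 without Media replicate 3.

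The separation was complete for some members. The 4 arrays of replicate 2 lay above all 8 others for 3 of 10 members, Asns, Chac1 and Phgdh, against 3.83% of transcripts. They lay below all 8 others for 1 of 10, Ddit4, against 2.73%. The 4 arrays of replicate 1 lay below all others for Psat1, 1 of 10, against 4.34%.

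**Figure D3:**
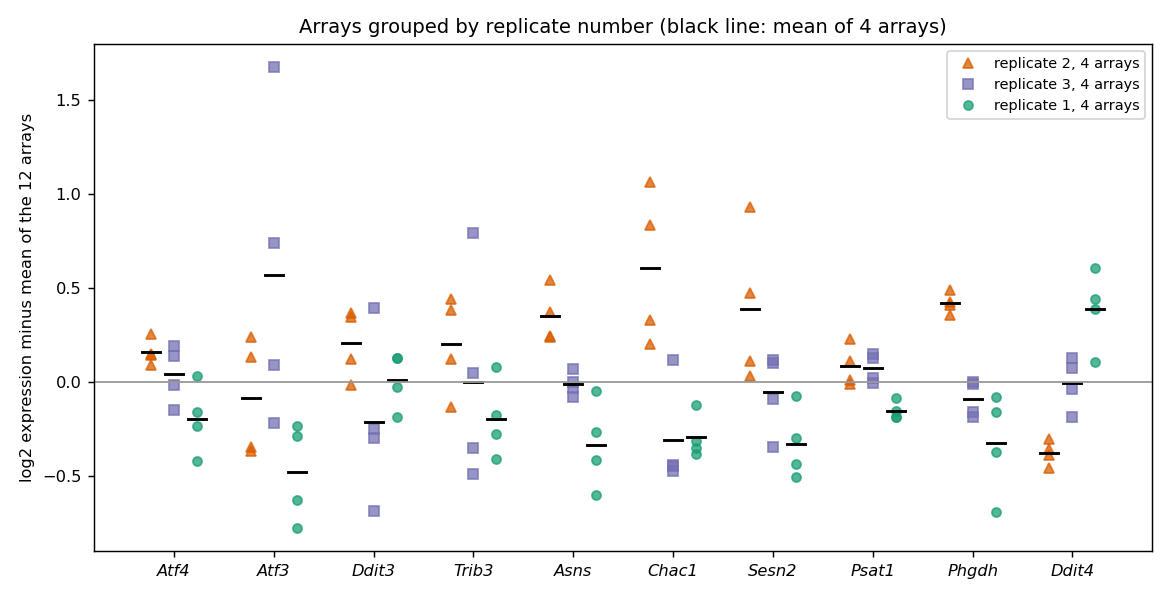
Log2 expression of each member as the deviation from its mean over 12 arrays (y axis), with 1 marker shape a replicate number, 1 point an array and a black line at the mean of 4 arrays. The arrays of replicate 2 sit above all others for Asns, Chac1 and Phgdh and below all others for Ddit4.

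The replicate number took a larger share of the spread than treatment did for 10 of 10 members. Of the sum of squares over 12 arrays, replicate number held 85.3% for Ddit4, 81.6% for Phgdh, 79.8% for Asns, 73.7% for Chac1 and 70.4% for Psat1. It held 58.3% for Sesn2, 58.1% for Atf4 and 46.3% for Atf3. The shares of treatment lay between 6.08% for Ddit4 and 21.3% for Psat1. For Ddit3 and Trib3, the part explained by neither was the largest, at 49.8% and 63.3%. Over the members the medians were 64.3% for replicate number and 15.2% for treatment, against 33.2% and 21.1% over all transcripts.

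**Figure D4:**
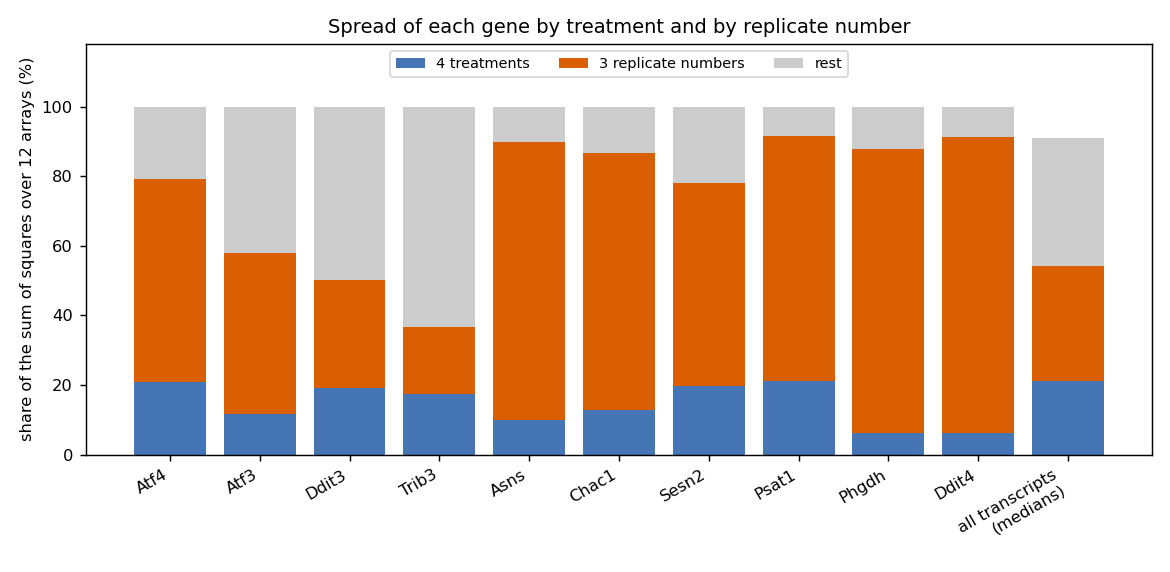
Share of the sum of squares over 12 arrays (y axis, percent) held by treatment, by replicate number and by neither for each member, beside the medians over all transcripts, which need not add up to the whole. Replicate number held 85.3% for Ddit4 and 19.3% for Trib3.

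Pairs of members were also correlated over the 12 arrays, which share their replicate numbers. Asns correlated with Sesn2 at r = 0.80, with Chac1 at 0.78 and with Ddit4 at -0.94. Among the enzymes of amino acid synthesis, r was 0.77 for Asns and Psat1, 0.65 for Asns and Phgdh and 0.58 for Psat1 and Phgdh. Atf4 correlated with Psat1 at r = 0.79 and Phgdh at 0.78. Ddit3 went with Trib3 at r = 0.75, while Atf3 and Chac1 were at 0.01. These values describe 12 arrays and carry no test. Among the other genes with 1 symbol, those most like the mean deviation of the members over 12 arrays were Cth at r = 0.96, Psph at 0.92, Ank2 and Strbp at 0.90, and Carmil1 and Ank at 0.89. CTH makes cysteine from cystathionine and PSPH is the last enzyme of serine synthesis. Most like Atf4 alone were Gars, the glycyl-tRNA synthetase, at r = 0.92, Pi4k2b at 0.91 and Kmt5b at 0.90.

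The other genes of the pathway were taken from 8 lists by role, of which 58 of 66 genes were measured. For replicate number 32 of 58 were called, against 20.4% of transcripts. For FFA and for INT-767 over 12 arrays 0 of 58 were called (0% of transcripts), with 1 of 58 for FFA and 2 of 58 for INT-767 at an unadjusted p under 0.05, against 2.4% and 6.27% of transcripts. With the replicate number as a block there were 4 of 58 for each, against 6.19% and 13.5% of transcripts. At the top of the pathway, the kinases of eIF2alpha were called for replicate number in 2 of 4 cases. Between replicates 2 and 1 their values were 0.15 ± 0.07 for Eif2ak1, the heme-regulated kinase, and -0.12 ± 0.08 for Eif2ak3, the ER stress sensor PERK, and neither passed. Both were called higher in replicate 3 than in replicate 1, by 0.37 (adjusted p = 0.0129) and 0.35 (adjusted p = 0.0291), and Eif2ak3 was called lower in replicate 2 than in replicate 3, at -0.47 (adjusted p = 0.0120).

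Of the eIF2 and eIF2B subunits, 3 of 6 were called higher in replicate 2 than in replicate 1, against 7.44% of transcripts, with Eif2b3 at 0.52, Eif2b5 at 0.38 and Eif2s2 at 0.35. Ppp1r15b, a regulatory subunit of the phosphatase that reverses eIF2alpha phosphorylation, was at 0.33 (adjusted p = 0.0316). It was the 1 of 4 phosphatase regulators called, against 7.44% of transcripts higher and 5.68% lower. Ppp1r15b was also called higher in replicate 3 than in replicate 1, by 0.45 (adjusted p = 0.0103). Among the bZIP partners of ATF4 and related factors 0 of 5 were called, against the same shares of transcripts. Their smallest p-values belonged to Jdp2 at -0.13 and Cebpg at -0.10. With INT-767, estimates were negative for 4 of 4 kinases, 5 of 6 subunits, 3 of 4 phosphatase regulators and 4 of 5 bZIP factors, with 0 called. Eif2b2 at -0.16 and Eif2b4 at -0.26 were the 2 of 58 list genes with an unadjusted p under 0.05 without the block. Both also had an unadjusted p under 0.05 with the block (adjusted p = 0.227 and 0.274).

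The downstream lists held most of the calls. Of the amino acid transporters, 8 of 9 were called higher and 1 lower in replicate 2 than in replicate 1, against 7.44% and 5.68% of transcripts, with a median of 0.60 against 0.03 for all transcripts. Slc7a11, the cystine importer, averaged 9.09 in replicate 2 and 6.49 in replicate 1, a difference of 2.60 ± 0.30 (adjusted p = 0.00188). Slc7a1, a carrier of arginine and lysine, was higher by 0.72 ± 0.09, the glutamine carrier Slc1a5 by 0.65 ± 0.10 and Slc1a4 by 0.60 ± 0.09. Slc43a1 was the one called lower, at -0.48 ± 0.13. Slc7a11 averaged 8.47 in replicate 3, higher than in replicate 1 by 1.98 (adjusted p = 0.00554). Between replicates 2 and 3 it was not called (adjusted p = 0.251). Of the 9 transporters, 2 were called higher and 1 lower in replicate 2 than in replicate 3, against 4.83% and 4.41% of transcripts. Between replicates 3 and 1, 4 of 9 were called higher and 0 lower, against 6.86% and 6.16%. For INT-767, Slc1a4 was the 1 of 9 with an unadjusted p under 0.05 in the fit with the block, at 0.17 (adjusted p = 0.359), against 13.5% of transcripts. The INT-767 estimates were positive for 8 of 9 transporters, with a median of 0.11 and 0 called.

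Of the genes of amino acid and one-carbon synthesis, 6 of 11 were called higher and 0 lower in replicate 2 than in replicate 1. This compares with 7.44% and 5.68% of transcripts, and the median was 0.43. Psph was higher by 0.65, Aldh18a1, which starts proline synthesis, by 0.54, Mthfd2, a mitochondrial folate enzyme, by 0.53 and Got1 by 0.43. Cth had a larger difference, 1.06 ± 0.31, that did not pass (adjusted p = 0.0585). Between replicates 2 and 3, 5 of 11 synthesis genes were called higher and 0 lower, against 4.83% and 4.41% of transcripts. Got1 was highest in replicate 3, at 10.41, against 10.22 in replicate 2 and 9.79 in replicate 1. With INT-767, 6 of 11 had positive estimates, with 0 called. Of the aminoacyl-tRNA synthetases with the tRNA exporter Xpot, 10 of 12 were called higher and 0 lower in replicate 2 than in replicate 1. This compares with 7.44% and 5.68% of transcripts. Their median was 0.41, and the calls included Xpot at 0.72, Iars at 0.66 and Gars at 0.58. Between replicates 2 and 3, 6 of these 12 were called higher and 0 lower, against 4.83% and 4.41% of transcripts. With INT-767, 10 of 12 had negative estimates, with a median of -0.04 and 0 called. With FFA all 12 had negative estimates, with a median of -0.06 and 0 called. Lars was at -0.19 (adjusted p = 0.803 with the block), and among the synthesis genes Pck2, the mitochondrial PEP carboxykinase, was at -0.28 (adjusted p = 0.803 with the block).

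Other targets of the response had 0 of 7 called higher and 1 lower, against 7.44% and 5.68% of transcripts. The 1 called lower in replicate 2 than in replicate 1 was Vegfa, an angiogenic growth factor that also responds to hypoxia, at -1.03 ± 0.19 (adjusted p = 0.0104). Vegfa averaged 9.87, 8.84 and 8.70 in replicates 1, 2 and 3. It was also called lower in replicate 3 than in replicate 1, at -1.17 (adjusted p = 0.00659). With INT-767, 4 of the 7 had positive estimates. Tnfrsf10b, at 0.19, had an unadjusted p under 0.05 in the fit with the block (adjusted p = 0.325). Chaperones and factors of the ER unfolded protein response had 6 of 13 called lower in replicate 2 than in replicate 1, against 5.68% of transcripts. Called higher were 0 of 13, and the median was -0.25. Atf6, one of the sensors of the unfolded protein response, was at 0.37 and did not pass (adjusted p = 0.0551). Xbp1, a transcription factor of that response, was at -0.85 ± 0.07 and Sdf2l1 at -0.70 ± 0.07. The chaperone Hsp90b1, also called GRP94, was at -0.33 ± 0.07 and Pdia6 at -0.32 ± 0.08. Between replicates 2 and 3, 2 of 13 were called lower and 0 higher, against 4.41% and 4.83% of transcripts. Between replicates 3 and 1, 3 of 13 were called lower and 2 higher, against 6.16% and 6.86%. With FFA, 12 of 13 of these genes had negative estimates, with a median of -0.08 and 0 called.

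**Figure D5:**
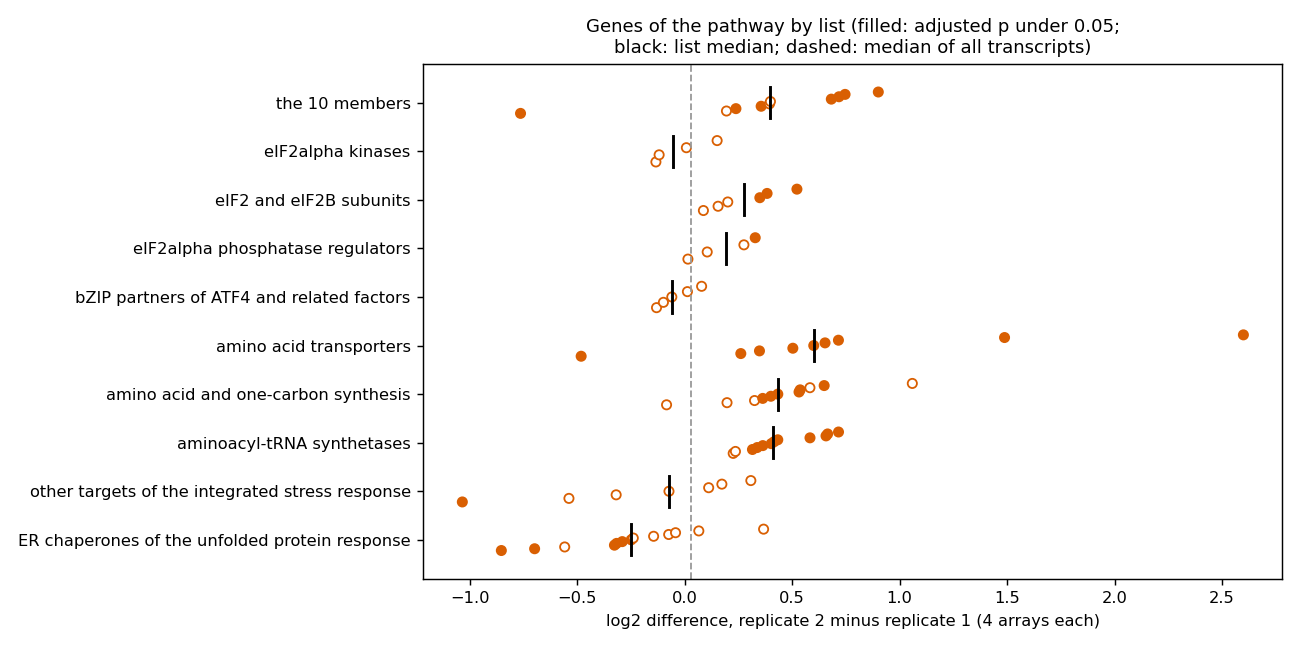
Log2 difference between replicates 2 and 1 (x axis) for the 10 members and each gene of the pathway lists, with filled points for genes at an adjusted p under 0.05, a black mark at each list's median and a dashed line at the median of all transcripts. Amino acid transporters had a median of 0.60 and the ER chaperones of -0.25.

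Markers of cell type moved with the replicate number too. The 6 stellate and fibroblast markers had a mean of 6.31 for replicate 2, 6.32 for replicate 3 and 7.78 for replicate 1. In replicate 2, 5 of 6 were called lower than in replicate 1, against 5.68% of transcripts. Acta2 was at -2.36, Pdgfrb at -1.87, Col1a1 at -1.23 and Des at -0.87. The mean of Cd34 was 6.41 for replicate 2, 8.79 for replicate 3 and 9.41 for replicate 1. Of the endothelial markers 3 of 5 were called lower in replicate 2 than in replicate 1, against 5.68% of transcripts. Called higher were 0 of 5, against 7.44%, with Eng at 0.13. The sinusoidal marker Mrc1, near the level used to call a gene present, was called higher in replicate 2 than in replicate 1, by 0.36 (adjusted p = 0.0194), and than in replicate 3, by 0.29 (adjusted p = 0.0487). The hepatocyte markers had 0 of 3 and the macrophage and leukocyte markers 0 of 2 called between replicates 2 and 1, against the same shares of transcripts. Apoa1 was called at -1.66 between replicates 2 and 3 (adjusted p = 0.0019) and at 1.32 between replicates 3 and 1 (adjusted p = 0.0031). Under treatment, the stellate and fibroblast list had negative estimates for 6 of 6 genes with FFA and 6 of 6 with INT-767, with medians of -0.33 and -0.53 and 0 called. With the replicate number as a block, 1 of 6 for FFA and 3 of 6 for INT-767, Col1a1, Pdgfrb and Acta2, had an unadjusted p under 0.05, against 6.19% and 13.5% of transcripts. The part of these markers in the differences of the stress response genes was not tested. Array medians lay between 5.76 and 5.87.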

How the data were processed

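RNA of 12 TSEC samples was hybridised to Mouse Gene 2.0 ST arrays. Deposited values are log2 expression values that the authors computed with Partek 6.6. For the normalization the methods name GC-RMA and the submitters' processing notes name RMA. Array medians were 5.76 to 5.87, and 21150 to 22137 of 26076 transcripts exceeded 4.5. The number of arrays limits the precision. Every deposited transcript exceeded 4.5 in at least 1 array, so genes below that level were not analysed here. Of the transcripts, 14317 carried 1 symbol, 1397 several and 10362 none, per GEO's platform annotation.

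No further normalization was applied, and limma 3.58.1 was run under R 4.3.3. Each comparison used its own arrays and transcripts over 4.5 in at least 1 of them, without a block, and Benjamini-Hochberg adjustment over all of them. FFA and INT-767 over 12 arrays had the other treatment as a factor, and replicate number had treatment as a factor. Members and lists were chosen with earlier results of these data known. All members were named, and of each list at most 4 genes called in a direction, or else the 2 of smallest p. The transcript of highest mean stood for a gene.

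Numbers in the titles pair arrays across groups. Deviations from group means correlated positively in all 18 same-numbered pairs (r = 0.20 to 0.54), so the replicate number was also fitted as a block. Other alternatives were leaving out each array, the same fits without limma's sharing of variance across transcripts, and fitting all 12 arrays together. The rest were a shift of arrays to equal medians, a second quantile normalization, transcripts unfiltered or over 4.5 in 3 arrays, and limma's trend with a robust prior. Promoter sequences are those of RefSeq, GRCm38.p6.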

Additional observations from a re-analysis of the deposited data

Results flagged for a closer look

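Among 70 groups of 4 to 6 arrays of a member, 3 held an array whose gap to its nearest neighbor took an unusually large share of the group's range by Dixon's test, which chance gives in about 1 of 20 groups. For Atf3 this was Media replicate 3 among the arrays without INT-767, at 8.35 with the nearest array at 6.76 and the farthest at 5.89 (gap 0.647 of the range). For Chac1 it was INT-767 replicate 3 among the arrays of replicate 3, at 7.36 with the nearest at 6.80 (gap 0.942 of the range). For Sesn2 it was FFA+INT-767 replicate 2 among the arrays with FFA, at 7.37 with the nearest at 6.54 and the farthest at 6.14 (gap 0.676 of the range). The interaction of FFA and INT-767 was tested for 10 members, and 0 passed.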

How the results depend on the processing

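The precision is set by 3 arrays a group. No treatment comparison called a member under any alternative, the block included. Under the replicate block, transcripts called stayed at 0 in all treatment comparisons and no call changed, while transcripts at an unadjusted p under 0.05 numbered 1463 with the block and 666 without it for FFA against Media, and 3512 and 1634 for INT-767 over 12 arrays. Without limma's sharing of variance across transcripts, the fits without the block gave 743 and 1605 unadjusted and 0 adjusted calls there. Averaging a gene's transcripts does not apply to the members, as each has 1. Members called between replicates 3 and 1 numbered 1 with quantile normalization, against 2, and those between replicates 2 and 3 numbered 4 with the intensity trend and robust prior, against 2. With arrays shifted to the same median, Psat1 between replicates 2 and 3 became -0.0491 and Chac1 between replicates 3 and 1 became 0.0305. Psat1 between replicates 2 and 1 lost its call with that shift and with quantile normalization. Between replicates 2 and 3, Ddit4 passed under 3 and Asns under 2 of the alternatives without a left-out array, and Asns passed under 2 between replicates 3 and 1. The cause was not tested.

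Leaving out single arrays, transcripts called ranged from 0 to 1 for INT-767 over 12 arrays (1 without FFA+INT-767 replicate 1) and for the interaction (1 without Media replicate 3), and from 3055 to 4595 for replicate number (3055 without FFA replicate 1, against 5323). Members called ranged from 4 to 6 for replicate number, from 4 to 6 between replicates 2 and 1, from 1 to 4 between 2 and 3, and from 0 to 2 between 3 and 1. Ranges that crossed 0 were, for FFA against Media, Atf3 -0.967 to 0.26. For FFA+INT-767 against INT-767 this was Sesn2 at -0.109 to 0.453. For INT-767 against Media they were Ddit4 -0.402 to 0.0533 and Chac1 -0.0286 to 0.679. For FFA+INT-767 against FFA they were Phgdh -0.462 to 0.0635 and Sesn2 -0.0271 to 0.483, and for FFA+INT-767 against Media Atf3 -0.773 to 0.454. For FFA over 12 arrays they were Ddit3 -0.169 to 0.0258, Asns -0.129 to 0.0649, Psat1 -0.0664 to 0.0206, Phgdh -0.107 to 0.127 and Ddit4 -0.207 to 0.00575. For INT-767 over 12 arrays they were Atf4 -0.101 to 0.025, Atf3 -0.0847 to 0.461 and Ddit4 -0.198 to 0.00458. For the interaction they were Trib3 -0.565 to 0.037 and Atf3 -0.598 to 0.629. By replicate number they were Psat1 -0.011 to 0.0466 between 2 and 3, and Trib3 -0.0748 to 0.384 and Chac1 -0.184 to 0.113 between 3 and 1.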
